A study of Mus musculus with 20 samples.

Results

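The sarcoglycans and the dystrophin complex were followed in embryonic mouse hearts as 8 genes, taken by symbol from a table of 33495 genes: Sgca, Sgcb, Sgcd, Sgce, Dmd, Dag1, Sspn and Sntb1. All 8 were found in the table, and all 8 passed the low-count filter in each Cre line and entered every test made with that filter. RNA-seq was performed on 20 libraries from C57BL/6 embryos in which floxed Kmt2d, the gene of an H3K4 methyltransferase, was removed with Cre from 1 of 3 drivers. The Mesp1Cre driver marks early mesoderm, and its embryos were sequenced as whole hearts at E9.0 by the sample labels (though the treatment protocol puts every harvest at E11.5), with 4 mutant and 4 control libraries. Tnnt2::Cre acts in cardiomyocytes, and its embryos were sequenced as whole hearts at E11.5, with 3 mutant and 3 control libraries. Mef2cAHF::Cre acts in the anterior heart field, and its embryos were sequenced as right ventricle with outflow tract at E11.5, with 3 libraries labelled mutant and 3 labelled control. Mutants were Cre; Kmt2d fl/fl; mTmG/+ and the controls, which the labels call WT, were Cre; Kmt2d fl/+; mTmG/+, so that every library carried Cre, the mTmG reporter and at least 1 floxed allele. Each comparison is therefore deletion of both alleles against deletion of 1 allele, in hearts that also hold cells outside the Cre lineage.

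Dystrophin, the product of Dmd, links the actin cytoskeleton of the muscle cell to a complex in its membrane. Dystroglycan, made as 1 precursor from Dag1, spans the membrane and binds laminin outside the cell and dystrophin inside it. The sarcoglycans are membrane proteins that sit beside dystroglycan and stabilise it; alpha-sarcoglycan (Sgca) belongs to striated muscle, while epsilon-sarcoglycan (Sgce) is its close relative with wider expression, and beta- and delta-sarcoglycan (Sgcb, Sgcd) form the core of the assembly. Sarcospan (Sspn) is a tetraspanin-like partner of the sarcoglycans, and beta-1-syntrophin (Sntb1) is an adaptor that binds dystrophin on the inner face. Loss of sarcoglycans or dystrophin is a known cause of muscular dystrophy and of cardiomyopathy.

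Reads counted per library ran from 21727258 to 45341870, and 0 pairs of libraries held identical values. The labels of the Mef2cAHF::Cre libraries contradict each other: the sample titles and genotypes name mutant the libraries that the columns of the table name WT, and the reverse for the others. Kmt2d had 187 to 194 CPM (counts scaled to the library total after TMM) in the libraries labelled mutant of that line and 146 to 156 in those labelled control, which goes against the titles. In Mesp1Cre it had 128 to 144 CPM in mutants and 152 to 164 in controls, and in Tnnt2::Cre 107 to 116 in mutants and 119 to 159 in controls. The difference passed the threshold in the Mef2cAHF::Cre libraries (log2 fold change by the titles 0.32, FDR 0.0359) and not in the other lines (-0.21, FDR 0.0764, and -0.35, FDR 0.327), and the count covers the whole gene, not the floxed exons alone. Every Mef2cAHF::Cre result below is given by the titles, with the column-name reading beside it, in which each sign is reversed. All 14 cardiomyocyte markers were detected in every group. The summed erythroid markers ran from 1947 to 162120 CPM over the libraries. Male libraries, read from 4 Y-linked genes, numbered 4 of the Mesp1Cre mutants and 2 of their controls, 1 and 2 for Tnnt2::Cre, and, for Mef2cAHF::Cre, 0 of those labelled mutant and 1 of the rest.

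In mm9 the sarcoglycan genes lie on chromosome 11 (Sgca, ENSMUSG00000001508, bases 94824105 to 94837641, and Sgcd, ENSMUSG00000020354, bases 46709755 to 47802471), chromosome 5 (Sgcb, ENSMUSG00000029156, bases 74026490 to 74038983) and chromosome 6 (Sgce, ENSMUSG00000004631, bases 4624350 to 4697204). Dmd (ENSMUSG00000045103) covers bases 80194209 to 82451480 of the X chromosome. Dag1 (ENSMUSG00000039952) lies on chromosome 9 from 108108289 to 108166255, Sspn (ENSMUSG00000030255) on chromosome 6 from 145880161 to 145913743, and Sntb1 (ENSMUSG00000060429) on chromosome 15 from 55470398 to 55738504. Of the 8 genes Sspn alone shares exonic bases with another annotated gene, 1.38% of them with Gm15705 on the opposite strand. Whether the counting used strand is not stated, so reads from this stretch cannot be assigned to either gene. The 250 bases before the start are shown for the member with the largest changes, Sgca, and for Dmd, which passed the threshold in none of the 3 lines, both 5′ to 3′ on the strand of the gene. They are RefSeq promoter sequences of GRCm38.p6 that matched mm9 letter for letter at a single place, Sgca at chr11:94837642-94837891 on the minus strand and Dmd at chrX:80193959-80194208 on the plus strand. Capitals mark matches on either strand to the E-box word CANNTG, to TATAAA and to the MEF2 and CArG (SRF) motifs.
Sgca: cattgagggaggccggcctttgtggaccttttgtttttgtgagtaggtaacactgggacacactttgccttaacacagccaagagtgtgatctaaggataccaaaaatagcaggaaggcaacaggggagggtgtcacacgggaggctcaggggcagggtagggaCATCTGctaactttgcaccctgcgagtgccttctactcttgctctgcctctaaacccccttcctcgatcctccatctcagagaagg
Dmd: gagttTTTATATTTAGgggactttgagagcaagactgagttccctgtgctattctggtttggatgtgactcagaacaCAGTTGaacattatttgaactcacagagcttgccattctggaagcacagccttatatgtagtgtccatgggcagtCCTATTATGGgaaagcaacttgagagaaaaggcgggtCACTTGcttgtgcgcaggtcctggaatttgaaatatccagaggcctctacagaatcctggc
The Sgca window held a single E-box word, CATCTG, which begins at position -86 from the start, and no match to the other motifs. The Dmd window, at the annotated start of the gene, held 2 E-box words, 1 CArG match and 1 MEF2 match that overlaps a TATAAA word read on the opposite strand. A second RefSeq window of Dmd, at chrX:82293384-82293633, held no match to any of these motifs. Among the windows found for the other members, called or not, none held a MEF2 or CArG match. Of 32536 RefSeq promoter windows of the same length, 66.2% held CANNTG, 2.89% the MEF2 motif, 1.48% the CArG motif and 12.3% TATAAA. A match of letters is a description of the window, not a site shown to be bound.

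Levels were compared between genes in FPKM, the authors' value per length and library total. Dag1 was the highest of the 8 genes in all 6 groups, from 53.2 ± 3.81 FPKM in Tnnt2::Cre controls (SD, n = 3) to 90.0 ± 8.55 in Mesp1Cre mutants (SD, n = 4), and its libraries did not overlap those of the next gene in any group. Sgcd was the lowest in 4 groups, from 0.65 ± 0.10 FPKM in Mesp1Cre controls (SD, n = 4) to 1.86 ± 0.21 in the Mef2cAHF::Cre libraries labelled mutant (SD, n = 3); in Mesp1Cre mutants its values overlapped those of Sgca, the next above it. Sgca took that last place in the other 2 groups, with 0.81 ± 0.20 FPKM in Tnnt2::Cre mutants (SD, n = 3), within the range of Sgcd there, and 0.28 ± 0.12 in the Mef2cAHF::Cre libraries labelled control (SD, n = 3). In Tnnt2::Cre controls Sgca stood at rank 4, at 5.14 ± 0.57 FPKM (SD, n = 3), with values overlapping those of Sgcb at 4.56 ± 0.34. In Mesp1Cre controls its rank was again 4, at 3.57 ± 1.04 FPKM (SD, n = 4), overlapping Sgcb above it and Dmd below it. Sspn moved furthest in order between the whole-heart controls, from rank 6 at E9.0 (2.40 ± 0.40 FPKM, n = 4) to rank 2 at E11.5 (11.4 ± 0.37, n = 3).

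**Figure D1:**
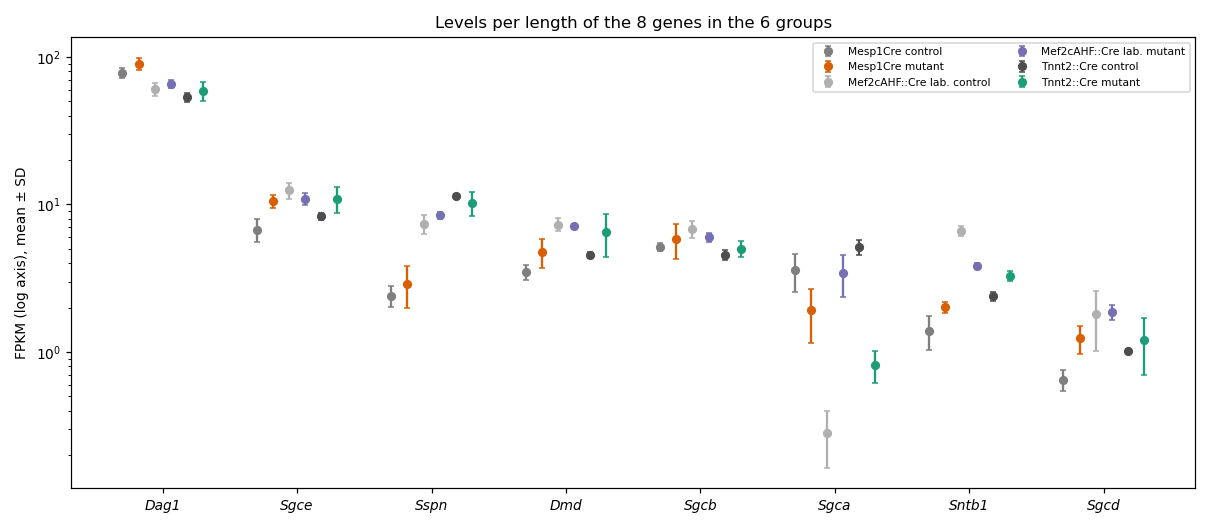
FPKM of the 8 genes in the 6 groups on a log axis, each point the mean of 3 or 4 libraries and each bar 1 SD; "lab." stands for labelled. Dag1 lies at the top in every group, and Sgca spans the widest range, from 0.28 FPKM in the Mef2cAHF::Cre libraries labelled control to 5.14 in Tnnt2::Cre controls.

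Deletion in cardiomyocytes with Tnnt2::Cre was accompanied by a fall of Sgca and by no other change past the threshold among the 8 genes. Sgca was counted 52, 44 and 65 times in the 3 mutant libraries and 456, 314 and 305 times in the 3 controls, which is 1.24, 1.11 and 1.73 CPM against 10.2, 8.70 and 8.89 CPM. Every mutant library lay far below every control library, and the level in mutants was 14.6% of that in controls. The log2 fold change was -2.77 (SE 0.21), a 6.83-fold lower level, with an FDR, edgeR's p adjusted over 17045 genes by the Benjamini-Hochberg method, of 0.00211. It is 1 of 8 genes called, where 0.293% of all genes tested were called in this comparison. In bulk hearts, fewer cells of a type and less RNA per cell cannot be told apart. The 14 cardiomyocyte markers summed to 31695 to 35278 CPM in mutants and 25744 to 35489 in controls, ranges that overlap, and with this list as a covariate the Sgca value was -2.79 (FDR 0.0296). The 13 skeletal muscle markers, 7 of which had under 10 counts in at least 1 library of each group, summed to 168 to 216 CPM in mutants and 123 to 180 in controls. Of the 9 that could be tested, 1 (Ckm) was called lower, and their median log2 fold change was -0.60; their part in the Sgca result was not tested. The 13 erythroid markers were more variable, 19558 to 133649 CPM in mutants and 104895 to 162120 in controls, and with them as a covariate the Sgca value was -2.76 (FDR 0.00175). Sgca passed the threshold in all 6 fits that each left out 1 library, with the FDR between 0.00110 and 0.0427.

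The partners of alpha-sarcoglycan did not follow it in Tnnt2::Cre mutants. Sgcb had 5.64, 6.11 and 6.03 CPM in mutants and 6.20, 5.73 and 5.68 in controls, with a log2 fold change of 0.01 (SE 0.14, FDR 0.983). Sgcd had 5.83, 12.4 and 9.81 CPM against 8.62, 8.89 and 8.83, so that its mutant libraries lay on either side of the controls (log2 fold change 0.09, SE 0.24, FDR 0.925). Sgce had 28.1, 35.8 and 32.6 CPM against 27.6, 25.3 and 27.5, without overlap but with a log2 fold change of 0.26 and an FDR of 0.416. Sspn lay lower, at 43.0, 53.1 and 47.9 CPM against 56.0, 56.6 and 62.2 (-0.28, FDR 0.356), and Sntb1 higher, at 9.38, 9.10 and 8.58 CPM against 7.15, 6.56 and 7.75 (0.33, FDR 0.368), both without overlap between the groups and without passing the threshold. In this and the other lines, the share of all genes without overlap was not counted. A lack of overlap therefore describes these libraries and is no sign of a change by itself. Dmd had 106, 179 and 155 CPM in mutants against 113, 114 and 110 in controls (0.38, SE 0.17, FDR 0.419). The mutant libraries differed among themselves, and without mutant replicate 1, which had the lowest level, the value was 0.57 with an FDR of 0.0147. That library also held the most erythroid RNA of the 3 mutants, 133649 CPM of the 13 markers, and leaving it out raised the number of genes called from 50 to 896. With the erythroid markers as a covariate and no library left out, the Dmd value was 0.0012 (FDR 0.998). The part of erythroid RNA was not tested further. Dag1 had 221, 249 and 258 CPM against 224, 226 and 266, a log2 fold change of 0.02 (SE 0.11, FDR 0.960).

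**Figure D2:**
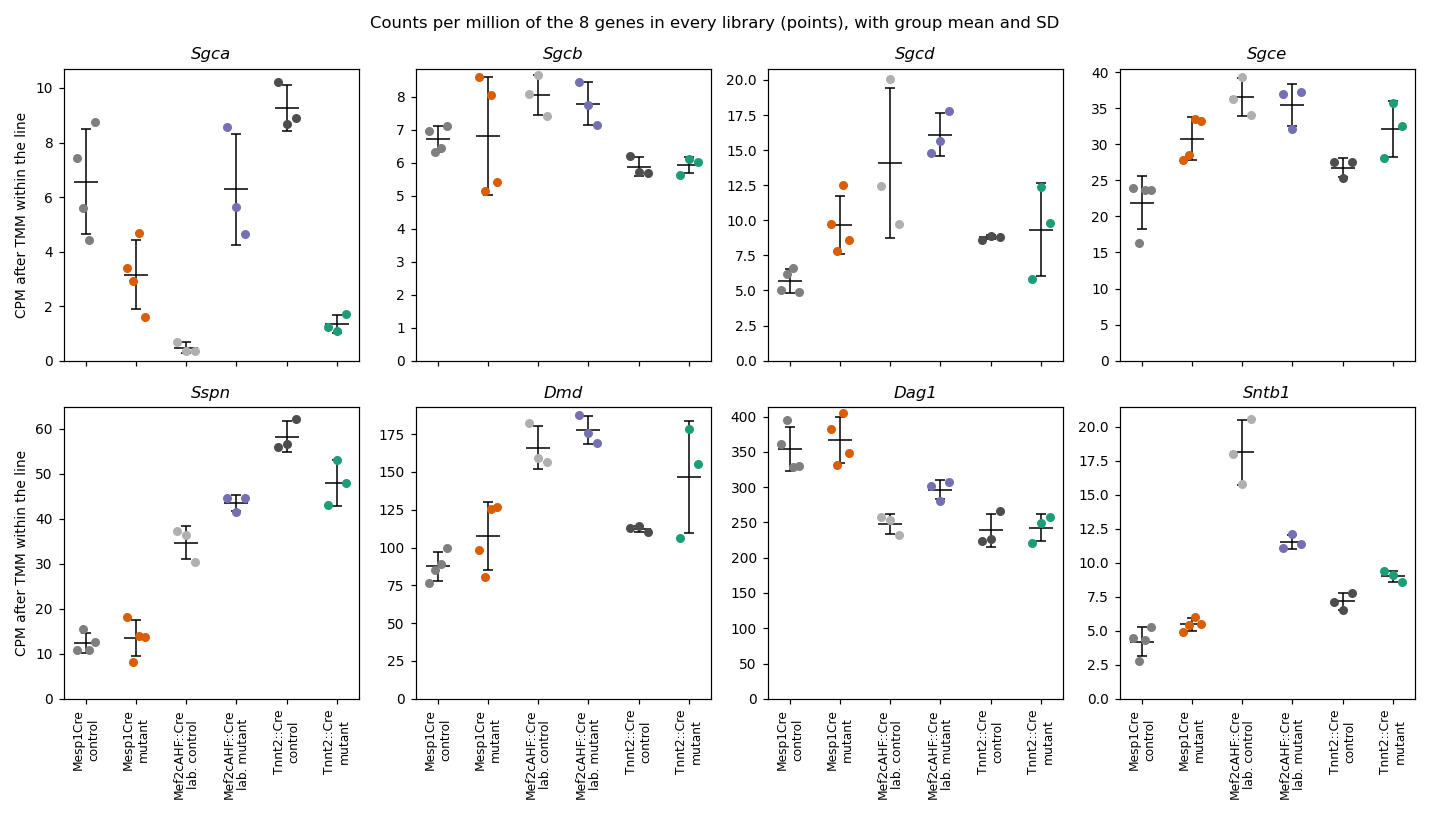
CPM after TMM within the line (vertical axes, each from 0) of the 8 genes, with 1 point per library and the group mean and SD as black marks. Sgca lies at 1.11 to 1.73 CPM in Tnnt2::Cre mutants and at 8.70 to 10.2 in their controls, while Sgcb and Dag1 overlap between the same groups.

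Deletion in early mesoderm with Mesp1Cre gave 2 calls among the 8 genes, both higher in mutants, Sgcd and Sgce. In this comparison 6.17% of 15883 genes were called higher and 5.29% lower, so that a count of 2 in 8 stands on a high background. Sgcd had 9.73, 7.82, 12.5 and 8.59 CPM in mutants and 5.0, 6.17, 6.61 and 4.90 in controls, with no overlap, a log2 fold change of 0.77 (SE 0.21) and an FDR of 0.0339. Sgce had 27.9, 28.5, 33.5 and 33.2 CPM in mutants and 23.9, 16.4, 23.6 and 23.7 in controls, with a log2 fold change of 0.49 (SE 0.14) and an FDR of 0.0408. Control replicate 2 of Sgce stood apart from the other controls, and without it the value was 0.37 with an FDR of 0.0868. The Sgce call held in 1 of 8 fits that left out a library, that without mutant replicate 2 (FDR 0.0381 there and 0.0535 to 0.0950 in the others). The Sgcd call held in 3 of 8, those without control replicate 3 and without mutant replicates 2 and 4, and its FDR in the other fits was 0.0581 to 0.0986. With sex, erythroid or cardiomyocyte markers as a covariate, neither gene passed the threshold. The Sgcd values were then 0.96 (FDR 0.0545), 0.55 (FDR 0.303) and 0.84 (FDR 0.0678), beside 0.77 without a covariate. The Sgce values were 0.37 (FDR 0.232), 0.63 (FDR 0.0778) and 0.48 (FDR 0.126), beside 0.49 without a covariate. The erythroid markers summed to 1947 to 7591 CPM in mutants and 5463 to 18043 in controls, and their part in these calls was not tested further.

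Sgca lay lower in Mesp1Cre mutants but did not pass the threshold. It was counted 79, 75, 107 and 40 times in mutants and 201, 133, 110 and 213 times in controls, or 3.40, 2.92, 4.69 and 1.60 CPM against 7.45, 5.58, 4.44 and 8.77. The highest mutant library exceeded the lowest control, and the log2 fold change was -1.06 (SE 0.33, FDR 0.0593). Left out in turn, mutant replicate 3, which had that highest level, gave -1.30 with an FDR of 0.0399. The DESeq2 Wald test (FDR 0.0153), a fit of all 6 groups together (FDR 0.0150) and a filter of at least 10 counts in every library (FDR 0.0495) placed it past the threshold. Of the 14 cardiomyocyte markers 4 were called lower and 1 higher in Mesp1Cre mutants, while their sums overlapped, at 27282 to 32534 CPM in mutants and 24959 to 33580 in controls. With that list as a covariate the Sgca value was -0.67 (FDR 0.313). Of 6 skeletal muscle markers tested, 1 (Mylpf) was called lower, and their median log2 fold change was -0.58. Sntb1 had 4.91, 5.41, 6.05 and 5.50 CPM in mutants and 4.45, 2.77, 4.31 and 5.31 in controls (0.38, FDR 0.371), and Dmd 98.1, 80.3, 126 and 127 CPM against 76.7, 85.4, 88.9 and 99.9 (0.30, FDR 0.187). Without mutant replicate 2, the lowest of the mutants in Dmd, its value was 0.43 with an FDR of 0.0307. Sgcb, Sspn and Dag1 overlapped between the groups, with log2 fold changes of 0.02, 0.11 and 0.05 and FDRs of 0.973, 0.796 and 0.738.

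In right ventricle and outflow tract with Mef2cAHF::Cre, Sgca and Sntb1 passed the threshold in opposite directions, and which direction belongs to the mutants depends on the label. Sgca was counted 235, 150 and 168 times in the libraries labelled mutant and 20, 10 and 9 times in those labelled control, or 8.56, 5.64 and 4.65 CPM against 0.698, 0.361 and 0.348. By the titles this is a log2 fold change of 3.72 (SE 0.35, FDR 0.00158) or a 13.2-fold higher level, and by the column names -3.72, a 13.2-fold lower level in mutants. Sntb1 had 11.1, 12.1 and 11.4 CPM in the libraries labelled mutant and 18, 15.8 and 20.6 in those labelled control, -0.65 by the titles and 0.65 by the column names (SE 0.12, FDR 0.0251). These are 2 of 8 genes called, where 2.85% of 16920 genes tested were called. The groups did not overlap in either gene. Sgca passed the threshold in all 6 fits that left out a library, and Sntb1 in the 3 that left out a library labelled control; its FDR without each of the libraries labelled mutant was 0.0927 to 0.136. Cardiomyocyte markers summed to 21427 to 22516 CPM in the libraries labelled mutant and 15768 to 20998 in those labelled control, without overlap, and 2 of the 14 were called higher and 0 lower by the titles. Of 9 skeletal muscle markers tested, 1 (Mylpf) was called higher by the titles, with a median log2 fold change of 0.50. With the cardiomyocyte markers as a covariate the Sgca value was 2.60 (FDR 0.131) and 4 genes in all were called. Erythroid markers summed to 25242 to 47760 and 7315 to 32238 CPM, and with them as a covariate Sgca was at 3.21 (FDR 0.0118) and Sntb1 at -0.83 (FDR 0.0258).

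None of the other members passed the threshold between the Mef2cAHF::Cre groups with edgeR. Sspn, at 44.6, 41.4 and 44.7 CPM in the libraries labelled mutant and 37.3, 36.4 and 30.5 in those labelled control, and Dag1, at 302, 281 and 307 against 258, 254 and 232, did not overlap between the groups, but with log2 fold changes by the titles of 0.33 and 0.26 their FDRs were 0.0951 and 0.0993. DESeq2 placed both past the threshold, at FDRs of 0.0488 and 0.0276. Dmd (0.10, FDR 0.589), Sgcd (0.19, FDR 0.723), Sgce (-0.05, FDR 0.847) and Sgcb (-0.05, FDR 0.881) overlapped, and by the column names each of these signs is reversed. One library labelled control, replicate 2, had 20.05 CPM of Sgcd where the others of its group had 12.5 and 9.75. With the erythroid markers as a covariate the Sgcd value by the titles was 0.81, with an FDR of 0.0475.

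**Figure D3:**
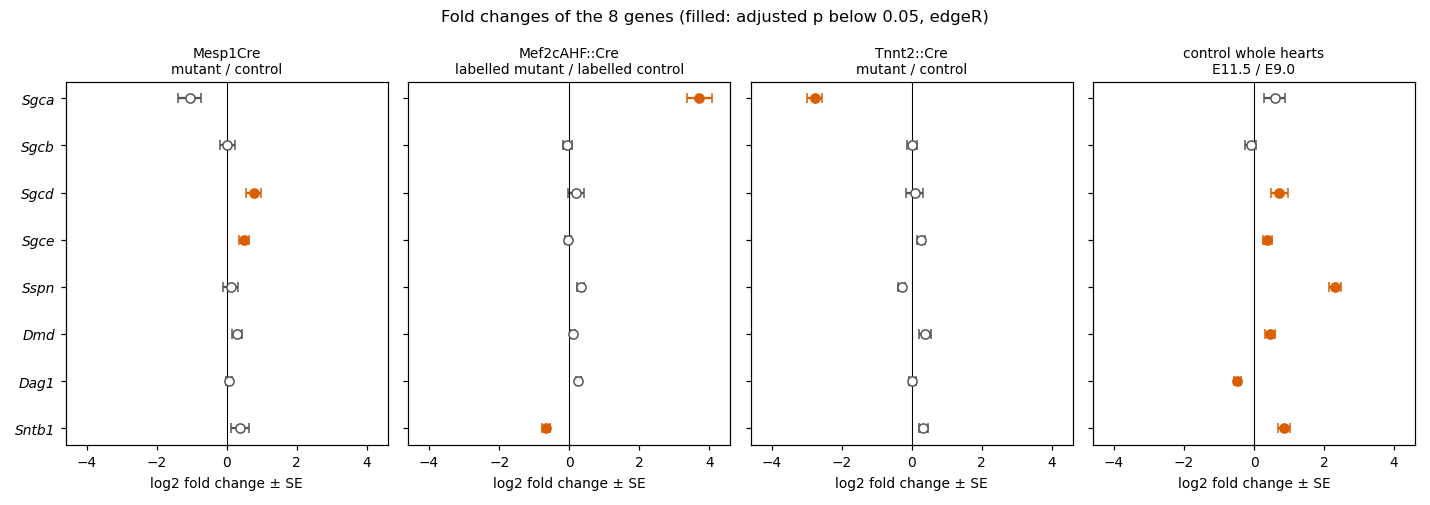
Log2 fold changes (horizontal axes) with 1 SE for the 8 genes in the 3 Cre lines, by the sample titles, and in E11.5 against E9.0 control whole hearts, filled where the FDR was below 0.05. Sgca is at -2.77 in Tnnt2::Cre, at -1.06 in Mesp1Cre and at 3.72 in Mef2cAHF::Cre, the last of which is -3.72 by the column names.

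The change of Sgca was also compared between lines, as an interaction in 1 fit of all 20 libraries. Its fall was smaller in Mesp1Cre than in Tnnt2::Cre by 1.70 on the log2 scale (SE 0.45, FDR 0.0461), the only 1 of the 8 genes called, where 3.04% of 18391 genes were called. This difference kept its sign in all 14 fits that left out a library and passed the threshold in 3 of them, those without Mesp1Cre control replicate 4 and Mesp1Cre mutant replicates 2 and 4, with FDRs of 0.0554 to 0.105 in the others. Stage and Cre line cannot be told apart in it. In the comparisons with Mef2cAHF::Cre below, Cre line cannot be told apart from tissue, nor from stage where the other line is Mesp1Cre. Between Mef2cAHF::Cre and Tnnt2::Cre the effect on Sgca differed by 6.49 (SE 0.54, FDR 3.54e-07) by the titles and by -0.95 (SE 0.52, FDR 1.00) by the column names. By the titles 3.19% of genes differed between these effects; by the column names 0 did with edgeR, where 472 had an unadjusted p below 0.05, while DESeq2 called 2 genes, 0 of them members. Between Mesp1Cre and Mef2cAHF::Cre the Sgca effect differed by -4.80 (FDR 7.23e-06) by the titles, beside a background of 11.3%, and by 2.64 (FDR 0.0130) by the column names, beside 1.63%. Sntb1 differed from Tnnt2::Cre by -0.98 (FDR 0.0313) and from Mesp1Cre, as Mesp1Cre minus Mef2cAHF::Cre, by 1.01 (FDR 0.00827) by the titles, and by 0.32 (FDR 1.00) and -0.30 (FDR 0.582) by the column names. By the titles, the Sntb1 difference from Tnnt2::Cre passed in 3 of 12 fits that left out a library (FDR 0.0387 to 0.0950 over the 12). That from Mesp1Cre passed in all 14.

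The share of Sgca in the summed FPKM of Sgca, Sgcb, Sgcd and Sgce was 26.02 to 28.2% in Tnnt2::Cre controls and 3.42 to 5.65% in mutants, while the share of Sgce was 42.8 to 45.2% and 59.9 to 62.1%. In Mesp1Cre the Sgca share was 15.8 to 26.5% in controls and 5.41 to 12.5% in mutants, which do not overlap although the Sgca levels themselves do. In the Mef2cAHF::Cre libraries it was 0.929 to 1.99% in those labelled control and 11.8 to 19.3% in those labelled mutant. The summed FPKM of these 4 genes overlapped between mutants and controls in each line, for example 14.3 to 21.0 against 18.2 to 20.6 in Tnnt2::Cre. The shares of 1 library add up to a fixed total, so that a fall of one gene raises the others. Sgcz, the zeta chain, was scarce, with 0 to 14 counts over all libraries.

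**Figure D4:**
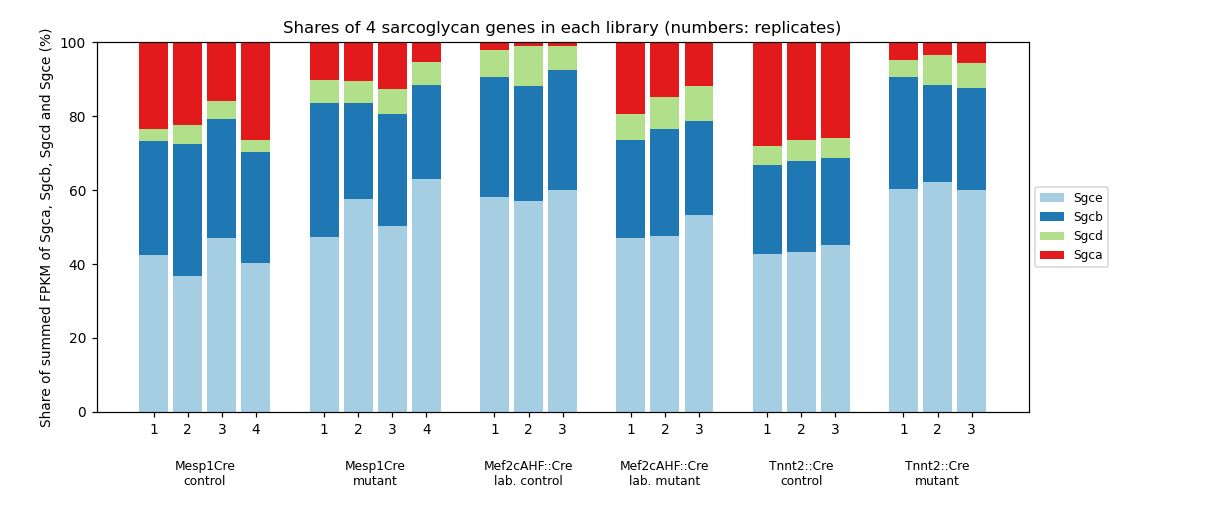
Share of Sgca, Sgcb, Sgcd and Sgce in their summed FPKM (vertical axis, percent), with 1 stacked bar per library. The Sgca part is 26.02 to 28.2% in Tnnt2::Cre controls, 3.42 to 5.65% in Tnnt2::Cre mutants and 0.929 to 1.99% in the Mef2cAHF::Cre libraries labelled control.

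Further genes of the complex, its extracellular ligands and the enzymes that glycosylate dystroglycan numbered 40. Those past the threshold are named by line, beside the genes called among all tested in that line. In Mesp1Cre 35 were tested, of which 2 were higher and 4 lower, beside 6.17% and 5.29% of all genes; the median log2 fold change was -0.09 over these 35 and -0.0018 over all genes. The lower ones were Plec, the cytolinker plectin (-0.92, FDR 0.000202), Dysf, the membrane repair protein dysferlin (-0.64, FDR 0.00363), Dolk, a dolichol kinase of the glycosylation pathway (-0.72, FDR 0.0228), and the laminin chain Lama4 (-0.41, FDR 0.0353). The higher ones were the laminin chain Lama2 (0.82, FDR 0.0429) and Utrn, the dystrophin relative utrophin (0.40, FDR 0.0151). Plec, Dysf and Utrn passed the threshold in all 8 fits that left out a library, Lama2 and Lama4 in 3 and Dolk in 4. Utrn did not pass with the sex (FDR 0.05001), cardiomyocyte (FDR 0.0518) or erythroid covariate (0.23, FDR 0.200), and Dysf did not pass in the limma fits on FPKM (FDR 0.0629 to 0.0826). In Mef2cAHF::Cre 40 were tested and 4 were called, beside 2.85% of all genes: Plec (0.67, FDR 0.00454), Cav3, the muscle caveolin (1.02, FDR 0.0285), Dysf (0.43, FDR 0.0465) and the matrix proteoglycan agrin, Agrn (0.39, FDR 0.0270), all higher in the libraries labelled mutant and lower in mutants by the column names. Plec kept its call in all 6 fits that left out a library, Cav3 in 2, Agrn in 1 and Dysf in 0, and in the fit of 6 groups the FDRs of these last were 0.286, 0.150 and 0.197. In Tnnt2::Cre edgeR called 0 of 38, with 3 at an unadjusted p below 0.05. Of all 17045 genes it called 50, with 2034 at an unadjusted p below 0.05. DESeq2 called 1 of 40, Plec, beside 360 of all 25820 genes. Plec had 62.4 to 84.3 CPM in those mutants and 95.5 to 103 in controls (-0.46, FDR 0.208 with edgeR). Plec shares 1.13% of its exonic bases with Parp10, and Dysf 2.98% with Gm15475.

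Control hearts themselves differed between E9.0 (4 Mesp1Cre controls) and E11.5 (3 Tnnt2::Cre controls), in a comparison where stage and Cre line cannot be told apart and whose libraries are also the controls of the comparisons above. Of the 8 genes 6 were called, beside 39.6% of all 18391 genes tested. Sspn was 4.98-fold higher at E11.5, the largest of these differences (2.32, SE 0.18, FDR 1.11e-08), at 2044 to 2500 counts against 271 to 371. Sntb1 (0.86, FDR 0.000395), Sgcd (0.73, FDR 0.0202), Dmd (0.45, FDR 0.0203) and Sgce (0.38, FDR 0.0187) were also higher, and Dag1 was lower by a log2 fold change of -0.47 (FDR 0.000358). Sgca (0.59, SE 0.30, FDR 0.130) and Sgcb (-0.10, FDR 0.672) did not pass. Leaving out 1 library took the FDR of Dmd, Sgcd or Sgce to 0.0503 to 0.0611 in 6 of 7 fits, all but the fit without E9.0 control replicate 3, while Sspn, Sntb1 and Dag1 passed in all 7.

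The genes whose pattern was most like that of Sgca were found by Pearson's r of log2 CPM over the 20 libraries, after the mean of each Cre line was removed, among 13961 genes tested in all lines with a mean of at least 1 CPM. The highest were Rtn4rl1, a Nogo receptor relative (r = 0.96), Hrc, a calcium-binding protein of the sarcoplasmic reticulum (0.94), the transporter gene Slc6a13 (0.94), Gm826 (0.93) and Camk2a, a calcium/calmodulin kinase subunit (0.92). Without removal of the line means r was 0.93, 0.72, 0.92, 0.92 and 0.86. These values describe libraries that share their line, stage and depth, and the reading of the Mef2cAHF::Cre labels does not enter them. Removal of the line means leaves the difference between the groups of each line, mutant and control, in r. The genes were thus chosen in part for differing between these groups as Sgca does, and their fold changes are no separate support. Camk2a changed by -0.61 in Mesp1Cre (FDR 0.0127), by -0.98 in Tnnt2::Cre (FDR 0.0113) and by 1.38 in Mef2cAHF::Cre by the titles (FDR 0.000697), a sign that the column names turn. Hrc changed by -1.22 in Tnnt2::Cre (FDR 0.0179) and by 1.93 in Mef2cAHF::Cre by the titles (FDR 0.000420), with -0.46 in Mesp1Cre (FDR 0.109). Rtn4rl1 changed by -0.99 in Tnnt2::Cre (FDR 0.0179) and by 1.52 in Mef2cAHF::Cre by the titles (FDR 0.00172), with -0.62 in Mesp1Cre (FDR 0.0645). Slc6a13 and Gm826 passed the threshold in Mef2cAHF::Cre alone (2.51, FDR 0.00472, and 2.42, FDR 0.000840, by the titles). Their values were -1.68 (FDR 0.0576) and -1.24 (FDR 0.111) in Tnnt2::Cre, and -0.90 (FDR 0.150) and -0.64 (FDR 0.138) in Mesp1Cre. Among the other members, r with Sgca was highest for Dag1 and Sspn (0.45 each) and lowest for Sntb1 (-0.69).

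**Figure D5:**
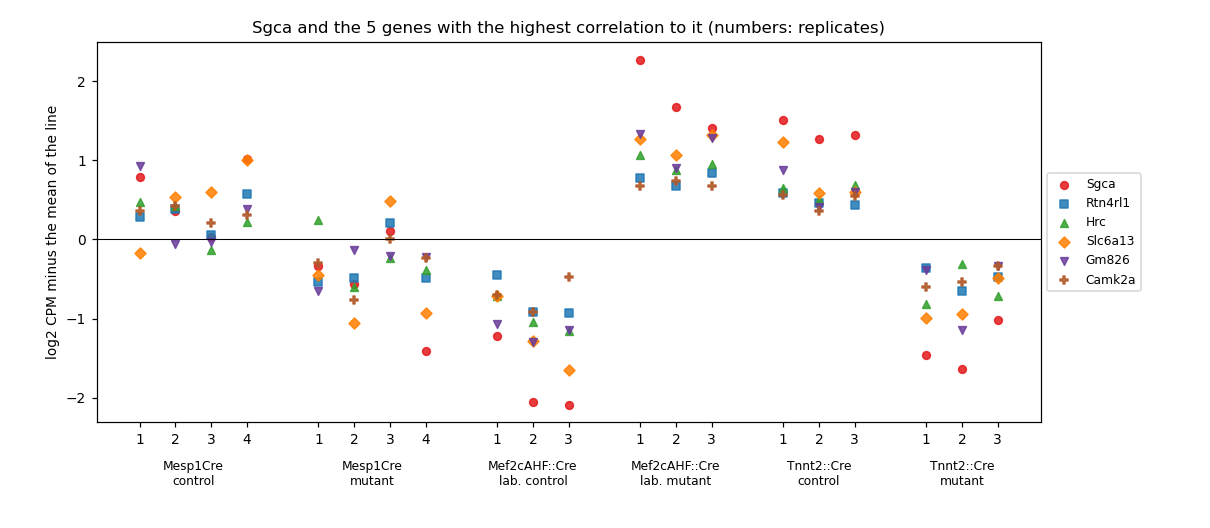
Log2 CPM minus the mean of the Cre line (vertical axis) for Sgca and the 5 genes with the highest r to it, with 1 column of points per library. The genes were chosen for this likeness, with r of 0.92 to 0.96, and Sgca spans the widest range of the 6.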

How the data were processed

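The deposited table held read counts per gene, FPKM and variance-corrected log2 values for 20 libraries, made by the authors with alignment to mm9 (TopHat2 2.0.8b per the submitters' processing notes), featureCounts and USeq. The deposited counts carried no normalization, the deposited FPKM were scaled by the authors to gene length and library total, and the 20 columns of log2 values were not used. Strand of counting and annotation were not given in the sources used here. Samples were grouped by their titles, and the Mef2cAHF::Cre comparison was repeated by the column names. Each line was fitted alone with edgeR 4.0.16 (R 4.3.3; filterByExpr, TMM, quasi-likelihood F test, Benjamini-Hochberg over all genes tested, threshold 0.05), and interactions and stage were contrasts in 1 fit of 6 groups. Each SE was taken as the size of the log2 fold change over the root of its F. CPM of the 8 genes were scaled by TMM within a line, and marker sums by TMM over all libraries. DESeq2 1.42.0 and limma 3.58.1 on log2(FPKM + 0.1) and log2(FPKM + 1) were alternatives, and the fits were tested on simulated data. Named were the 8 genes, further complex genes past the threshold in any line (some genes of the complex are not reported here), Kmt2d and the 5 genes most like Sgca. Members and lists were chosen with earlier results of these data known. Library totals were 21727258 to 45341870 counts, and the precision of low genes such as Sgca, with 9 to 456 counts, is limited by counting. The labels do not say that each library is a separate embryo, though the paper gives n = 4 or 3 per genotype. The p-values measure the spread between these libraries, which may be technical in part. Libraries of both sexes occurred among the Mesp1Cre controls, both Tnnt2::Cre groups and the Mef2cAHF::Cre libraries labelled control, so none of these groups came from a single embryo. In the other groups all libraries were of 1 sex, which does not decide it. Replicate numbers were not shown to pair libraries. RefSeq promoters were found for 6 of 8 members; Sgce and Sntb1 are named only.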

Additional observations from a re-analysis of the deposited data

Results flagged for a closer look

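Among the 4 Mesp1Cre control libraries, replicate 2 had 16.4 CPM of Sgce, far from the 23.6 to 23.9 of the others. Of 32 groups of 4 values examined, this 1 stood apart by Dixon's criterion at 95%, where chance alone sets apart about 1 in 20.

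The effect on Sgca differed between lines when the difference itself was tested by edgeR. It differed by 1.70 between Mesp1Cre and Tnnt2::Cre (adjusted p 0.0461), by 6.49 between Mef2cAHF::Cre and Tnnt2::Cre (3.54e-07) and by -4.80 between Mesp1Cre and Mef2cAHF::Cre (7.23e-06), the last 2 by the sample titles. By the column names the value for Mesp1Cre against Mef2cAHF::Cre was 2.64 (adjusted p 0.0130). The effect on Sntb1 differed by -0.98 between Mef2cAHF::Cre and Tnnt2::Cre (0.0313) and by 1.01 between Mesp1Cre and Mef2cAHF::Cre (0.00827), both by the titles only. The first of these Sntb1 differences passed the threshold in 3 of 12 fits that left out a library. In all these differences Cre line cannot be told apart from stage, from tissue or from both.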

How the results depend on the processing

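The fall of Sgca in Tnnt2::Cre passed the threshold in all 12 alternatives (adjusted p up to 0.0497) and in all 6 fits that left out a library; in Mef2cAHF::Cre Sgca passed in 10 of 11 alternatives, the exception being the cardiomyocyte covariate, and was removed by the filter of at least 10 counts in every library. Of the 8 genes, those called in Mesp1Cre numbered 2, and 3 with DESeq2, with the filter of 10 counts and in the fit of 6 groups, 1 with limma on log2(FPKM + 0.1), with and without its filter, and 0 with the sex, erythroid or cardiomyocyte covariate; leaving out a library gave 0 to 3. In Mef2cAHF::Cre 2 became 4 with DESeq2, 1 with the filter of 10 counts, 0 with the cardiomyocyte covariate and 1 in the fit of 6 groups, and 1 to 2 without a library; in Tnnt2::Cre leaving out a library gave 1 to 2. For the interactions the counts became 0 (Mesp1Cre against Tnnt2::Cre) and 1 (Mef2cAHF::Cre against Tnnt2::Cre) with the filter of 10 counts, and 0 and 1 by the column names (Mef2cAHF::Cre against Tnnt2::Cre, and Mesp1Cre against Mef2cAHF::Cre); without a library they were 0 to 1, 1 to 2 and 2 to 2, and 4 to 6 for stage. The filter of 10 counts in every library removed Sgca, which had 9 counts in a Mef2cAHF::Cre library, from that line, the interactions and the stage comparison. Sgca was therefore not tested there. The cause of the other changes was not tested, except that the filters test fewer genes.

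Over all genes, Mesp1Cre gave 1821 calls, 899 with the sex, 476 with the erythroid and 980 with the cardiomyocyte covariate, 3593 in the fit of 6 groups and 1052 to 2161 without a library. Mef2cAHF::Cre gave 482, and 1083 with DESeq2, 1311 with all genes of at least 1 count, 291, 253 and 71 with limma on log2(FPKM + 0.1), on log2(FPKM + 1) and on all genes above 0, 215 and 4 with the erythroid and cardiomyocyte covariates, 129 in the fit of 6 groups and 75 to 662 without a library. Tnnt2::Cre gave 50, and 360 with DESeq2, 120 with all genes of at least 1 count, 22, 19 and 5 with the same limma fits, 17, 116 and 11 with the sex, erythroid and cardiomyocyte covariates, 82 in the fit of 6 groups and 4 to 896 without a library. The interactions gave 559, 586 and 2076 with edgeR and 1255, 1042 and 2709 with DESeq2, and 0 and 299 by the column names; without a library they gave 167 to 1037, 295 to 1031 and 1225 to 2471. The FPKM fits moved the median of all genes by 0.15 (Mesp1Cre), -0.13 (Mef2cAHF::Cre by the titles) and 0.11 (Tnnt2::Cre) with the pseudocount of 0.1.

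Signs turned in these log2 fold changes, none of them past the threshold except those by the column names. In Mesp1Cre Sgcb was -0.051, -0.25 and -0.00069 with sex, erythroid and 6 groups, and Dag1 -0.092 and Sspn -0.33 with erythroid. In Mef2cAHF::Cre Dmd was -0.034, -0.031 and -0.034 with the limma fits and -0.089 with cardiomyocyte, Sgcb 0.0012 with sex, and Sgce 0.0094, 0.091 and 0.0057 with sex, erythroid and cardiomyocyte. In Tnnt2::Cre Sgcb was -0.00040 and -0.045 with sex and erythroid, Sgcd -0.49 with erythroid, and Dag1 -0.092 and -0.066 with erythroid and cardiomyocyte. By the column names Mef2cAHF::Cre gave Sgca -3.72, Sgcb 0.052, Sgcd -0.19, Sgce 0.046, Dmd -0.10, Dag1 -0.26, Sspn -0.33, Sntb1 0.65, Plec -0.67, Dysf -0.43, Agrn -0.39 and Cav3 -1.02, and the interactions Sgca -0.95 and 2.64 and Sntb1 0.32 and -0.30. Without a library the turned values ranged from -0.11 to 0.14 (Sgcb) and -0.055 to 0.30 (Sspn) in Mesp1Cre, -0.11 to 0.0071 (Sgcb), -0.0095 to 0.54 (Sgcd) and -0.092 to 0.021 (Sgce) in Mef2cAHF::Cre, -0.011 to 0.049 (Sgcb), -0.17 to 0.34 (Sgcd) and -0.025 to 0.11 (Dag1) in Tnnt2::Cre, and -0.13 to 0.15 for Sntb1 in Mesp1Cre against Tnnt2::Cre.

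With the replicate number as a block, 1 of the 8 genes was called in Mesp1Cre (Sgcb turned to -0.015), Dysf in Mef2cAHF::Cre no longer passed, and Tnnt2::Cre gave 28 calls. Libraries of the same number showed little common deviation, with r from -0.03 to 0.09 (Mesp1Cre), -0.01 to 0.18 (Mef2cAHF::Cre libraries) and -0.04 to 0.06 (Tnnt2::Cre). This does not show that they are paired, and so few pairs cannot exclude it.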
